A study of Mus musculus with 74 samples.

Results

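The distal ends of the mouse autosomes were taken as the last 2 Mb of each of the 19 autosomes by their length in mm10, divided into 1-kb windows. They held 38000 of the 2462755 windows of these chromosomes. At least 50% of the bases were assembled in 35639 of them, which together held 35.6 Mb, or 1.49% of the assembled autosomal sequence. The windows were taken by position alone, but this part of the genome was chosen with earlier results of these data known. Most of the remainder is the unassembled stretch at the very end, which took the last 150 windows on chromosomes 4 and 6 and the last 100 on the other autosomes, so the telomere itself was not measured. In these windows the occupancy of H3K9me3, the trimethylated lysine 9 of histone H3, was read from 10 broad peak lists made by ULI-NChIP-seq, a native ChIP-seq for small cell numbers that cuts chromatin with micrococcal nuclease and uses no crosslinking.

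The lists covered cumulus cells (CC), which surround the oocyte and served as nuclear donors, and SCNT embryos, in which a donor nucleus was placed in an enucleated oocyte, at 6 and 14 h post activation (hpa), at the 2-cell, 4-cell, 8-cell and morula stages, and in samples of inner cell mass (ICM) and of trophectoderm (TE), both from blastocysts. The last list came from fertilized zygotes of the fifth pronuclear stage (PN5). Donor cells and oocytes came from B6D2F1 females, and all SCNT embryos were activated with strontium in the presence of cytochalasin B, whereas the zygotes came from C57BL/6 parents and, by the methods of the study, from earlier work. The labels give no added allele for any group. Embryo type, strain and study therefore cannot be told apart in any comparison with PN5. Of 74 libraries, 41 were H3K9me3 precipitates, with 4 libraries behind the CC list, 5 behind 6 hpa, 4 behind 14 hpa, 6 behind 2-cell, 3 behind 4-cell, 7 behind 8-cell and 6 behind morula, and 2 behind each of ICM, TE and PN5. The authors pooled them and sampled an equal read number per group before they called peaks, so each list is 1 sample. No test across samples could be run, and intervals given here are Wilson 95% intervals with 1 kb of covered length as a unit, which cover counting error only. Peak lists hold no expression values, so the labelled cell types were not checked against marker genes.

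H3K9me3 is a mark of heterochromatin, laid down by SUV39H enzymes and SETDB1 and read by HP1 proteins. It is known from pericentromeric and telomere-flanking chromatin, from silenced retrotransposons, and from zinc finger, olfactory receptor and other clustered gene families. Mouse autosomes are telocentric, with the centromere at the start of the sequence, so the distal end examined here is the telomere-facing end of the only long arm.

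Sequences from 4 kinds of distal region are shown because they mark the extremes of the behaviour described below: the first 2 regions of each kind, with the central 100 bases of the forward strand in mm10 and CpG dinucleotides in capitals. The 4 kinds were counted in the distal ends only, so their numbers are not shown to be particular to these ends. The first kind was under a peak in all 10 lists, of which there were 379 stretches adding up to 338.5 kb. The longest, chr11:121313390-121319575 (6186 bp, 763.0 kb from the chromosome end), was intergenic, 3494 bp from Foxk2, and 99.6% soft-masked as repeat. The next, chr1:195261659-195266317 (4659 bp), was intergenic and 205.7 kb from the end.
chr11:121316433-121316532: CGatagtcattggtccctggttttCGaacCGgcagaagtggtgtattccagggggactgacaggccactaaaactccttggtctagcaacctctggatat
chr1:195263938-195264037: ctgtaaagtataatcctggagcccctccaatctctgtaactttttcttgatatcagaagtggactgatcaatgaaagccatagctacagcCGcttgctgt

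The second kind was fully covered in the CC list and the first 3 SCNT lists (6 hpa, 14 hpa, 2-cell) and lay in no PN5 peak (653 stretches, 268.2 kb). The 2 longest were intergenic on chromosome 13, chr13:120220445-120224241 (3797 bp, 4498 bp from Gm21762) and chr13:119976533-119980170 (3638 bp, 25727 bp from B020031M17Rik). Both lie in the outer end of that chromosome, 69.8% of whose 50-base words recur nearby, so the placement of reads there is uncertain. In the later lists the first of them was covered at 96.6% in the 4-cell, 85.2% in the 8-cell, 52.6% in morulae, 54.6% in the ICM and 35.2% in the TE list.
chr13:120222293-120222392: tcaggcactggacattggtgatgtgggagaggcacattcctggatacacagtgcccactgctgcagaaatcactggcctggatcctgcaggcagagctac
chr13:119978302-119978401: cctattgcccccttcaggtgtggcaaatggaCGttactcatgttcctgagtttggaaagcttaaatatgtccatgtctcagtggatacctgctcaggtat

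The third kind was PN5 peaks that touched no peak of the other 9 lists (437 peaks, 304.1 kb), where the distal ends held 1556 PN5 peaks. They were ordered by the fold enrichment over input that the authors' peak caller gave. The peak of highest fold, 4.27, was chr15:102203389-102203622 (234 bp), which overlapped Csad and Zfp740 with 66 exonic bases and was 73.9% G and C, with 25 CpG. The next, chr5:151030196-151030592 (397 bp, fold 3.97), was intergenic, 6918 bp from Stard13.
chr15:102203456-102203555: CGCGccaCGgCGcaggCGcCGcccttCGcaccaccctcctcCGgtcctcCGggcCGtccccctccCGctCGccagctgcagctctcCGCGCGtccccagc
chr5:151030344-151030443: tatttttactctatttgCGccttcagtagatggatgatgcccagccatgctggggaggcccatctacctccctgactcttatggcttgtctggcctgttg

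The fourth kind was 6 hpa peaks that touched no CC peak (1114 peaks, 558.7 kb), where the distal ends held 2314 peaks at 6 hpa. The peak of highest fold, 5.44, was chr8:127898597-127899036 (440 bp, 98.2% soft-masked), intergenic and also fully covered at 14 hpa, in the 2-cell, 4-cell and 8-cell lists and in PN5. The next, chr4:156236754-156237348 (595 bp, fold 5.33), lay in Noc2l with 50 CpG and was otherwise covered in PN5 only. These 2 peaks differ in their later course, since the repeat on chromosome 8 was covered in most lists and the CpG-rich stretch of Noc2l in no other SCNT list.
chr8:127898767-127898866: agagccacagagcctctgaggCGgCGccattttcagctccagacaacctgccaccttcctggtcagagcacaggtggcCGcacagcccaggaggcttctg
chr4:156237001-156237100: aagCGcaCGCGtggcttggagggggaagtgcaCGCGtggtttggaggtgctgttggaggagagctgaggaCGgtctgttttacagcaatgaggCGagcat

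Over the whole 2 Mb, the distal ends were covered somewhat less than the rest of the same chromosomes in donor cells and more in blastocysts. In CC, peaks covered 8.22% of the distal bases (interval 7.94% to 8.51%) and 8.87% of the rest, a ratio of 0.927. At 6 hpa the values were 5.33% and 5.78% (ratio 0.923), at 14 hpa 8.51% and 8.63% (0.987), and in 2-cell embryos 5.25% and 5.12% (1.03), the last 2 ratios being within counting error of 1. From the 4-cell stage the distal share was the higher. It was 7.61% against 6.51% in 4-cell embryos (ratio 1.17), 8.07% against 7.01% in 8-cell embryos (1.15) and 9.37% against 7.84% in morulae (1.20). ICM and TE had the largest ratios of the 10 lists, 8.48% against 6.40% in ICM (1.33, distal interval 8.20% to 8.78%) and 7.99% against 6.03% in TE (1.32). PN5 had the smallest, 4.58% against 5.40% (0.849). At this extent, the distal ends were thus below the chromosome average in CC and above it in ICM.

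The number of chromosomes with the more covered distal end followed the same course. It was 7 of 19 in CC, 5 at 6 hpa, 8 in both the 14 hpa and 2-cell lists, 10 in 4-cell and 11 in 8-cell embryos, 13 in morulae, 15 in ICM and in TE, and 5 in PN5. Chromosomes 10 and 15 were above 1 in all 10 lists, and chromosomes 1 and 19 were below 1 in all 10. Chromosomes 3 and 13 were above 1 in each list but PN5. These chromosomes are parts of 1 genome and do not stand for replicates.

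**Figure D1:**
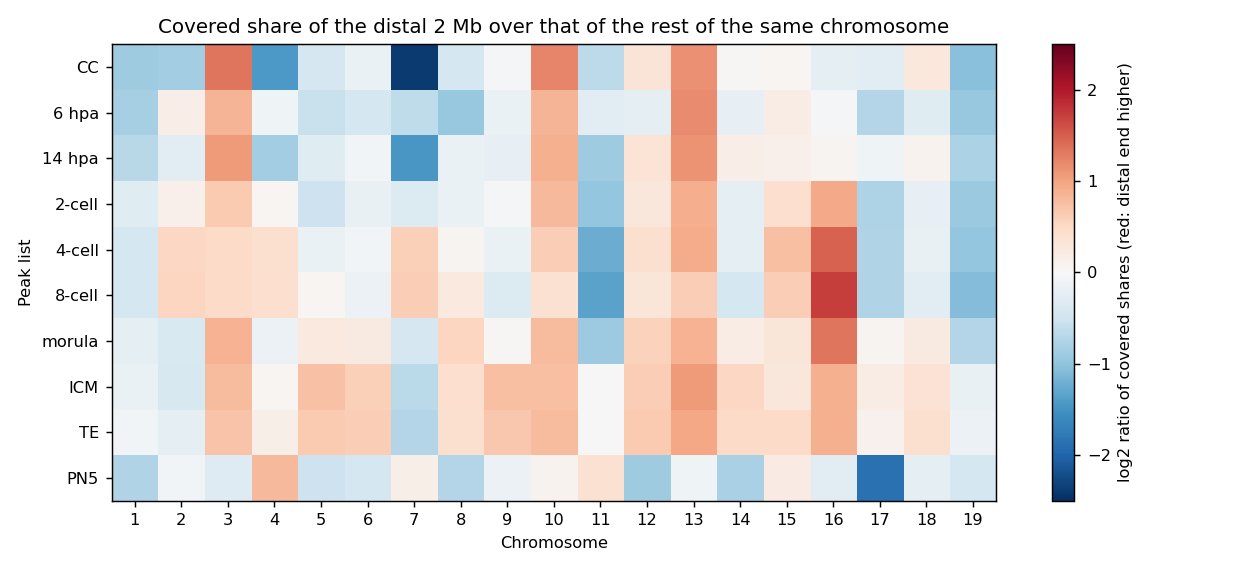
Log2 ratio of the share of bases under H3K9me3 peaks in the distal 2 Mb to that in the rest of the same chromosome, for each chromosome (columns) and list (rows), red where the distal end was the more covered. Chromosomes 10 and 15 were red in all 10 lists, chromosomes 1 and 19 blue in all 10, and 15 of 19 chromosomes were red in ICM and in TE.

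Single chromosomes took quite different courses. On chromosome 7, whose distal end holds an imprinted region and the Fgf3, Fgf4 and Fgf15 genes, the distal share was 4.19% in CC against 21.9% in the rest (ratio 0.191), 7.26% at 6 hpa, 6.00% at 14 hpa, 6.84% in 2-cell, 14.3% in 4-cell and 15.2% in 8-cell embryos (ratio 1.53), then 8.61% in morulae, 5.47% in ICM, 5.02% in TE and 8.19% in PN5. Without chromosome 7 the pooled ratio of CC was 1.05 and that of 14 hpa was 1.06, so the pooled values below 1 depended on it. Leaving out chromosome 13 instead lowered the pooled ratios, to 0.850 in CC and 0.916 at 14 hpa. The medians over the 19 chromosomes were also below 1, at 0.860 and 0.924. The distal end of chromosome 16 also had its highest share in 8-cell embryos and had lower values after it that stayed above its rest up to the blastocyst, with 4.86% in CC, 4.05% at 6 hpa, 6.59% at 14 hpa, 7.502% in 2-cell, 13.7% in 4-cell and 17.7% in 8-cell embryos (ratio 3.32), 15.3% in morulae, 10.02% in ICM, 9.39% in TE and 3.60% in PN5. Without chromosome 13 the pooled ratio of the 2-cell list was 0.975. In ICM and TE no single chromosome decided the side, with ratios from 1.28 to 1.38 in ICM and from 1.28 to 1.39 in TE when each was left out.

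The 2-Mb average joined unlike stretches. Within them, coverage was highest next to the assembled end in each list and lower beyond the first 0.5 Mb. In the bin nearest the end (the last 250 kb) peaks covered 24.0% of the bases in CC, 12.1% at 6 hpa, 21.1% at 14 hpa, 11.8% in 2-cell, 13.1% in 4-cell and 11.5% in 8-cell embryos, 17.9% in morulae, 22.0% in ICM, 21.4% in TE and 7.73% in PN5. In the bin from 0.75 to 1 Mb the 10 lists lay between 3.66% (2-cell) and 6.47% (ICM). Between 3 and 3.25 Mb it reached 18.1% in 8-cell embryos, above their last 250 kb, but 8.96% in ICM. The extent chosen for a distal end thus set the sign in CC and at 6 hpa, since the ratio was 1.29 and 1.13 with the last 1 Mb and 1.12 and 1.38 with the last 5 Mb.

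**Figure D2:**
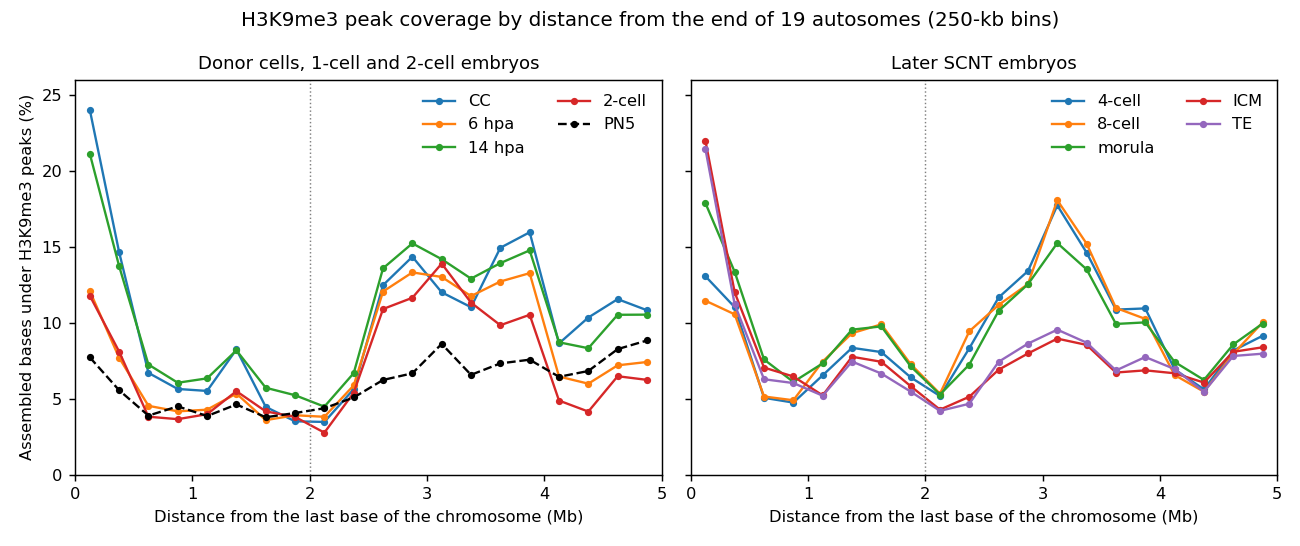
Share of assembled bases under H3K9me3 peaks (%) against the distance from the last base of the chromosome (Mb), in 250-kb bins over 19 autosomes, with 1 line per list and a dotted line at 2 Mb. The bin nearest the end reached 24.0% in CC, 21.1% at 14 hpa and 22.0% in ICM, against 7.73% in PN5.

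After this profile had been seen, the distal ends were split into an outer 0.5 Mb (7290 windows) and the next 1.5 Mb (28349 windows). In the outer part, peaks covered 18.1% in CC (interval 17.2% to 19.01%), 9.32% at 6 hpa (8.68% to 10.01%), 16.5% at 14 hpa (15.6% to 17.3%), 9.47% in 2-cell, 11.8% in 4-cell, 10.9% in 8-cell embryos, 15.0% in morulae, 15.7% in ICM (14.9% to 16.5%), 15.0% in TE (14.2% to 15.8%) and 6.36% in PN5 (5.83% to 6.95%). The outer part was above the rest of the chromosomes by 2.04 times in CC, 1.61 at 6 hpa, 1.91 at 14 hpa, 1.85 in 2-cell, 1.81 in 4-cell and 1.55 in 8-cell embryos, 1.92 in morulae, 2.45 in ICM, 2.48 in TE and 1.18 in PN5. In the CC and SCNT lists this held on 16 to 18 of 19 chromosomes. In PN5 it held on 9 of 19, with a median ratio of 0.941. The next 1.5 Mb was below the rest in CC (5.68% against 8.87%), at 6 hpa (4.31%), 14 hpa (6.47%) and the 2-cell stage (4.16%) and in PN5 (4.12%), and close to it in the other 5 lists, with ratios between 1.005 and 1.05.

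**Figure D3:**
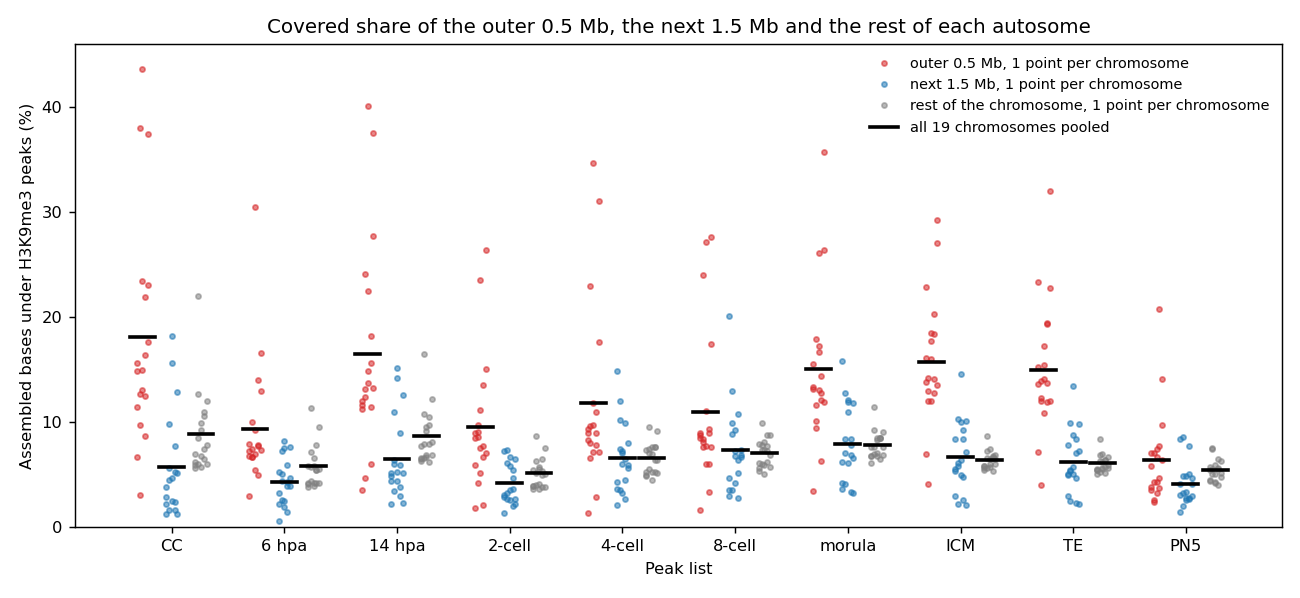
Share of assembled bases under H3K9me3 peaks (%) in the outer 0.5 Mb (red), the next 1.5 Mb (blue) and the rest (grey) of each autosome, by list, with 1 point per chromosome and a black bar for the 19 pooled. The outer bar is at 18.1% in CC and 15.7% in ICM and at 6.36% in PN5, and the points spread widely, from 3.06% on chromosome 7 to 43.7% on chromosome 13 in CC.

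The outer ends of chromosomes 13 and 15 were the most covered at 6 hpa, 14 hpa and in the 2-cell, 4-cell and 8-cell lists. On chromosome 15, the outer 0.5 Mb was covered at 37.4% in CC, 16.6% at 6 hpa, 37.5% at 14 hpa, 26.4% in 2-cell, 31.0% in 4-cell and 27.6% in 8-cell embryos, 35.7% in morulae, 29.3% in ICM, 31.99% in TE and 14.1% in PN5. On chromosome 13 the values were 43.7% in CC, 30.4% at 6 hpa, 40.1% at 14 hpa, 23.6% in 2-cell, 34.7% in 4-cell and 27.2% in 8-cell embryos, 26.1% in morulae, 18.5% in ICM, 14.1% in TE and 4.24% in the PN5 list. Of the exact 50-base words of the outer end of chromosome 13, 69.8% occurred again, on either strand, in the distal 2 Mb of the same chromosome, against 0.949% to 16.3% on the other 18. Reads in such near-identical copies cannot be placed with certainty, and how the authors treated them is not given in the sources used here. Left out in turn, no chromosome brought the pooled outer ratio of any list to 1, and without chromosome 13 the outer share was 16.6% in CC and 8.10% at 6 hpa.

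The last peak was also placed against the last assembled base. No like distance was measured at other positions, where the rest held from 103778 (2-cell) to 181066 (8-cell) peaks. Closeness is therefore not shown to be particular to the end. The gap between the last assembled base and the last peak had a median over the 19 chromosomes of 0.0830 kb in CC, 0.219 kb at 6 hpa, 0.200 kb in 2-cell embryos, 0.139 kb in morulae, 0.0460 kb in ICM and 0.0560 kb in TE. It was longer in the other lists, 9.85 kb at 14 hpa, 12.3 kb in 4-cell, 9.73 kb in 8-cell embryos and 5.42 kb in PN5. In ICM and TE 18 of 19 chromosomes had a peak within 10 kb of that base, compared with 16 in CC and at 6 hpa, 10 at 14 hpa, 13 in 2-cell, 8 in 4-cell and 11 in 8-cell embryos, 17 in morulae and 11 in PN5. Mammalian telomere repeats are tandem TTAGGG, and 94 distal windows held at least 2 copies in a row on either strand, 48 of them in the outer part. They made up 0.264% of the distal and 0.658% of the outer windows, against 0.0478% in the rest (1127 windows). Few of the 94 were marked, that is, covered over at least 50% of their bases, with 7 in CC (7.45%, against 7.65% of all distal windows), 9 in ICM (9.57%, against 7.79%), 10 in TE (10.6%, against 7.28%) and 1 to 5 in the other 7 lists, each of them below the share of all distal windows, as in 4-cell embryos (1.06%, against 6.98%) and at 14 hpa (5.32%, against 7.96%).

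Distal peaks had nearly the same fold as others. The median fold enrichment, a ratio from the authors' peak caller, was 2.75 in the distal ends and 2.71 in the rest in CC, 2.73 in both at 6 hpa, 3.03 and 3.01 in ICM and 2.86 and 2.84 in PN5. Outer peaks in CC were wider, with a median of 1048 bp against 737.0 bp in the rest, while at 6 hpa the medians were 605.0 and 563.0 bp. The widest distal peak, of 36172 bp, was in CC.

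The sequence of the outer part differed in its repeat content from the rest. Soft-masked bases made up 44.1% of the outer 0.5 Mb, 32.2% of the next 1.5 Mb and 33.5% of the rest, and G and C made up 41.2%, 42.7% and 41.9%. Annotated exons took 7.09% of the outer part, 7.36% of the next and 5.07% of the rest. Protein-coding gene starts were denser at 11.8 and 14.4 per Mb than in the rest, at 8.61 per Mb.

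The lists also differed in the base composition of what they marked. Among marked distal windows, those under 40% G and C made up 34.6% in CC, 26.6% at 14 hpa, 23.7% in ICM, 21.4% in TE and 18.1% in morulae, but 4.95% at 6 hpa, 6.85% in 2-cell, 7.56% in 4-cell and 7.71% in 8-cell embryos and 7.56% in PN5, against 36.5% of all distal windows. The 5 lists poor in such windows had the lowest outer shares, and the part of composition in those shares was not tested beyond setting the rest to the outer part's composition. With that, the outer ratio stayed above 1 in each list, from 1.29 in PN5 to 2.67 in TE.

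The first step after transfer was read from CC and 6 hpa. Distal covered length at 6 hpa was 0.649 of that in CC, as in the rest of the chromosomes (0.651), and it was shorter on 15 of 19 chromosomes, with chromosome 4 at the other extreme (1.78). The outer part differed more between these lists, with a ratio of 0.515 (lower on 17 of 19 chromosomes), compared with 0.758 in the next 1.5 Mb. When each list was trimmed, from its strongest peaks down, to the 122.7 Mb covered by the shortest, the distal ratio was 0.961 and the outer ratio 0.741. Of 2726 distal windows marked in CC, 1792 or 65.7% (63.9% to 67.5%) were unmarked at 6 hpa, where the autosomal background was 63.7%. Of those 1792, 779 (43.5%) were marked at 14 hpa, against 40.4% in the rest of the chromosomes. Of 1595 distal windows marked at 6 hpa, 661 or 41.4% (39.1% to 43.9%) were de novo, meaning unmarked in CC, near the background of 39.5%. At 14 hpa 199 of these 661 de novo windows (30.1%) were marked, and 808 of the 934 distal windows marked in both CC and 6 hpa (86.5%), against 37.7% and 82.9% in the rest. In the outer part the de novo share was lower, 170 of 590 or 28.8% (25.3% to 32.6%). Of the outer length under 6 hpa peaks, 69.6% lay in CC peaks, against 58.2% in the rest. CC peaks covered 18.1% of the outer part and 8.87% of the rest, so these shares do not show better retention there. In the other direction, 854 of 1274 outer CC windows (67.03%) were unmarked at 6 hpa, against 63.64% in the rest.

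At the end of the first cell cycle, the distal ends were covered more in SCNT embryos at 14 hpa than in PN5, with a ratio of lengths of 1.86, above 1 on 16 of 19 chromosomes. The ratio was 1.60 in the rest. The outer part gave the widest difference, at 2.59 times (16 of 19 chromosomes), compared with 1.57 in the next 1.5 Mb, and trimmed to equal length the distal ratio was 1.24 and the outer ratio 1.74. Of 2835 distal windows marked at 14 hpa, 833 or 29.4% (27.7% to 31.1%) were marked in PN5, where the autosomal background was 29.2%. Conversely, 56.7% of the 1468 distal PN5 windows were marked at 14 hpa, against 49.2% in the rest, and in the outer part 71.1% (66.6% to 75.1%). Of the 1134 outer windows marked at 14 hpa, 307 or 27.1% were marked in PN5, and of the outer CC windows 20.5%. With 432 outer windows marked in PN5, the share of the longer 14 hpa list is bounded by the unequal sizes.

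From the 2-cell stage on, distal length was greater in 4-cell than in 2-cell embryos on all 19 chromosomes, with a ratio of 1.45 against 1.27 in the rest. The rest was also covered more in 4-cell embryos on every chromosome, and the distal ratio was above that of the rest on 12 of 19. Between the 8-cell stage and the blastocyst lineages the outer and the next part differed in direction. The outer part was covered 1.44 times as much in ICM and 1.38 times as much in TE as in 8-cell embryos, higher on 17 of 19 chromosomes in both, while in the next 1.5 Mb the ratios were 0.903 and 0.842. Against CC, the ICM covered 1.03 times the distal length but 0.721 of the rest, and TE 0.971 and 0.680, with the distal ratio above that of the rest on 16 of 19 chromosomes in both. Of the 2726 distal CC windows, 1427 or 52.3% (50.5% to 54.2%) were marked in ICM, against 35.8% in the rest. In the other direction there was little difference, since 51.4% of the 2776 distal ICM windows were marked in CC, against 51.0% in the rest. The list sizes differed between the parts, with ICM marking 7.79% of distal and 5.795% of other windows, and CC 7.65% and 8.26%. Of the 1829 distal CC windows that were unmarked in 8-cell embryos, 673 or 36.8% (34.6% to 39.0%) were marked in ICM, against 22.6% in the rest. ICM and TE were the most alike of the 45 pairs of lists in the distal ends, with a Jaccard index (shared bases over bases of either list) of 0.555, compared with 0.502 in the rest. CC and PN5 were the least alike, at 0.162, compared with 0.135 in the rest. The same pairs were the most and the least alike in the rest. Windows marked in all 10 lists made up 0.878% of the distal ends (313 windows) and 1.93% of the outer part, against an autosomal background of 0.592%.

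The distal ends held the starts of 493 of the 20807 autosomal protein-coding genes, 86 of them in the outer part. A promoter, 1 kb either side of the start, counted as marked when at least 50% of it lay under a peak or at least 50% of a peak lay in it. In CC 27 of 493 distal promoters were marked (5.48%, background of all autosomal promoters 7.96%), at 6 hpa 147 (29.8%, background 30.0%), at 14 hpa 35 (7.10%, background 8.66%), and 21 in 2-cell embryos (4.26%, background 6.39%). Later lists had 25 in 4-cell embryos (5.07%, background 6.16%), 30 in 8-cell embryos (6.09%, background 6.81%), 26 in morulae (5.27%, background 5.14%), 32 in ICM (6.49%, background 4.02%) and 36 in TE (7.30%, background 4.14%). PN5 had 37 (7.51%, background 9.29%). Distal promoters were thus marked at 6 hpa about as often as promoters elsewhere. Their counting interval lay above the background in TE (5.32% to 9.94%) and in ICM (4.63% to 9.02%) and below it in CC (3.79% to 7.85%). The outer promoters alone were above the rest in each list, also in CC, where 15 of 86 were marked (17.4%, against 8.02% in the rest). In ICM 12 of the 86 were marked (13.95%, against 3.96%) and in TE 15 (17.4%, against 4.06%). Of the 147 marked at 6 hpa, 130 (88.4%) were not marked in CC, against a background of 84.7% over all autosomal promoters marked at 6 hpa. Of those 130, 20 (15.4%) were marked at 14 hpa, where the background was 11.65%.

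The gene lists below, also chosen with earlier results of these data known, are given by the number of genes touched by a peak. Over all autosomal protein-coding genes that share, the background, was 45.4% in CC, 61.6% at 6 hpa, 44.6% at 14 hpa, 31.5% in 2-cell, 34.1% in 4-cell and 37.6% in 8-cell embryos, 39.3% in morulae, 40.0% in ICM, 40.7% in TE and 55.7% in PN5. Fewer of the 493 distal genes were touched in each list, from 108 (21.9%) in 2-cell embryos to 290 (58.8%) at 6 hpa, with 168 (34.1%) in CC, 164 (33.3%) in ICM and 231 (46.9%) in PN5. The median gene coverage over all 493 was 0 in each list but 6 hpa, where it was 1.06%.

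The Hoxc homeobox cluster, which sets positional identity along the body axis, lies about 1 Mb from the end of chromosome 15. None of its 9 measured genes had a peak in CC, ICM or TE, whereas 7 had one at 6 hpa, 4 each at 14 hpa and in 2-cell embryos, 6 in 4-cell and in 8-cell embryos, 1 in morulae and 2 in PN5. The annotated Hoxc5 gene spans Hoxc9, Hoxc8 and Hoxc6 and overlaps Hoxc10, so 1 peak can count for more than 1 gene. Hoxc11 (chr15:102954427-102957708) was covered over 95.03% of its length at 6 hpa, 33.6% in 4-cell, 16.2% in 8-cell embryos and 0 in the other 7 lists. Hoxc12 was covered at 67.5% at 6 hpa, 26.3% at 14 hpa, 32.5% in 2-cell, 40.4% in 4-cell and 50.7% in 8-cell embryos, and at 0 in CC, morula, ICM, TE and PN5. Hoxc8 and Hoxc4 had no peak in any list. For a gene without a peak, the mark was below what its list could detect.

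Genes of the imprinted region of distal chromosome 7, where 1 parental copy is normally silent, divided in their values. Cdkn1c (chr7:143458339-143461050), which encodes the cell cycle inhibitor p57, was covered at 93.6% in CC, 80.0% at 6 hpa, 73.6% at 14 hpa, 100% in 2-cell embryos, at 0 in 4-cell and 8-cell embryos, morulae, ICM and PN5, and at 19.8% in TE. Its coverage was thus confined to the donor list, the SCNT lists up to the 2-cell stage and TE. Phlda2, a restrainer of placental growth, was covered at 70.7% at 6 hpa and at 0 in the other 9 lists. Tnfrsf23, a decoy receptor, was covered in 9 lists, from 12.4% in 2-cell embryos to 34.9% in CC, and at 0 in PN5. Over the 9 listed genes of the region, 5 had a peak in CC, 8 at 6 hpa, 7 at 14 hpa, 3 or 4 in the lists from the 2-cell stage to TE, and 6 in PN5.

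Among the 5 distal fibroblast growth factor genes, all had a peak at 6 hpa, 3 had one in CC, 14 hpa and PN5, and 2 in each other list. Fgf3 (28.0% at 6 hpa, 2.71% at 14 hpa, 7.52% in PN5) and Fgf15 (35.8% at 6 hpa) were at 0 in CC. Fgf4, the ligand by which ICM cells sustain the trophoblast lineage, was covered at 18.3% at 6 hpa, 0.917% in CC and 0 in the other 8 lists.

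A cluster of chemokine receptor genes, which guide leukocyte migration, lies on distal chromosome 9 and had most of its peaks late. Of its 8 genes, 2 had a peak in CC, 3 at 6 hpa, 2 at 14 hpa, 3 in 2-cell, 5 each in 4-cell embryos, 8-cell embryos and morulae, 7 in ICM, 6 in TE and 4 in PN5. Ccr1l1 was at 0 in CC, 6 hpa, 14 hpa and 2-cell lists, then at 20.7% in 4-cell, 94.2% in 8-cell embryos, 93.4% in morulae, 53.5% in ICM, 58.3% in TE and 15.4% in PN5. Ccr2 was at 0 in CC, 6 hpa, 14 hpa and PN5, at 2.93% in 2-cell embryos and between 18.01% and 27.1% in the later SCNT lists.

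Of 9 zinc finger genes, 4 had a peak in CC, 7 at 6 hpa, 3 at 14 hpa, 1 in 2-cell and in 4-cell embryos, 4 in 8-cell embryos, 3 in morulae, 5 in ICM, 4 in TE and 6 in PN5. Zfp445, which encodes a KRAB zinc finger protein that maintains genomic imprints, was covered at 44.4% in CC, 23.3% at 6 hpa, 13.6% at 14 hpa, 7.36% in 2-cell, 7.29% in 4-cell and 14.8% in 8-cell embryos, 18.4% in morulae, 91.2% in ICM, 78.8% in TE and 18.1% in PN5. Its neighbour Zkscan7 was at 16.1% in CC, 33.4% in ICM and 28.7% in TE and at 0 at 14 hpa, at the 2-cell and 4-cell stages and in PN5. Most of the 60 distal olfactory receptor genes had no peak, with 4 (2-cell) to 17 (morula) of 60 touched by one. Mx1, an interferon-induced antiviral GTPase and the only gene of its list found here, was covered between 7.63% (CC) and 21.4% (8-cell) in the CC and SCNT lists and at 0 in PN5.

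Genes of at least 2 kb chosen for their highest mean coverage or their largest difference between lists are given as a description. The highest mean over the 10 lists, 46.6%, was that of Csf2ra, a subunit of the GM-CSF receptor, at 55.6% in CC, 81.4% at 6 hpa, 5.79% at 14 hpa, 0 in 2-cell, 25.1% in 4-cell and 15.2% in 8-cell embryos, 28.7% in morulae, 100% in ICM and TE and 53.8% in PN5. Sectm1a, a secreted and transmembrane protein gene, was the steadiest of these, at 33.0% to 51.9% in all 10 lists. Mucl2 and Mucl1, mucin-like genes of distal chromosome 15, had unlike patterns. Mucl2 was highest at 14 hpa (100%), against 35.0% in CC and 27.1% in PN5. Mucl1 was the gene furthest below CC at 6 hpa, with 74.5% and 0, and had 26.7% at 14 hpa, 38.0% in 2-cell, 19.7% in 4-cell and 55.1% in 8-cell embryos, 88.2% in morulae, 29.9% in ICM, 45.1% in TE and 0 in PN5.

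The rankings that follow are also among genes of at least 2 kb, and some shorter genes differed more. Next below CC at 6 hpa were Gm20767 (77.0% in CC and 33.9% at 6 hpa) and the overlapping genes B230307C23Rik (52.3% and 9.55%) and A630089N07Rik (51.2% and 10.3%), which start 210.5 and 125.3 kb from the end of chromosome 16 and share bases. After Hoxc11, the genes furthest above CC at 6 hpa were 1810010D01Rik (54.9%), Bhlhe23, a basic helix-loop-helix factor (49.2%), and AF067063 (44.3%), all at 0 in CC. Coverage at 14 hpa was furthest above PN5 in Gm21731 (98.3% against 0), Cdkn1c, Mucl2 and Gm21761 (61.1% against 0). Of the 50-base words of Gm20767, AF067063, Gm21731 and Gm21761, all on chromosome 13, 71.6% to 76.8% recurred in that distal end, so their values are uncertain.

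PN5 was furthest above 14 hpa, among genes of at least 2 kb, in 3 genes of distal chromosome 4 and in 1810010D01Rik (59.3% against 0). Rnf223, a RING finger gene, was at 100% in PN5, 5.30% at 6 hpa and 0 in the other 8 lists. Tnfrsf4, the T cell costimulatory receptor OX40, was at 93.1% in PN5 and at 0 in the other 9, and Fndc10 at 70.3% in PN5, 11.2% at 6 hpa and 0 elsewhere. Chromosome 4 was also the chromosome with the highest outer share in PN5, 20.7%.

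Between the blastocyst lineages, genes of at least 2 kb were ranked in the same way. ICM was most above TE in 4833420G17Rik (76.2% against 46.1%), the chemokine receptor gene Ccr1 (37.9% against 8.39%) and AF067063 (26.8% against 0). TE was most above ICM in Actg1, which encodes cytoplasmic gamma-actin (67.4% against 22.2%), Gm10999 (42.3% against 0) and Vmn2r-ps159, named as a vomeronasal receptor pseudogene (91.2% against 57.9%). Such single differences have no replicate behind them, and ICM and TE were separated by hand from the same kind of blastocyst.

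**Figure D4:**
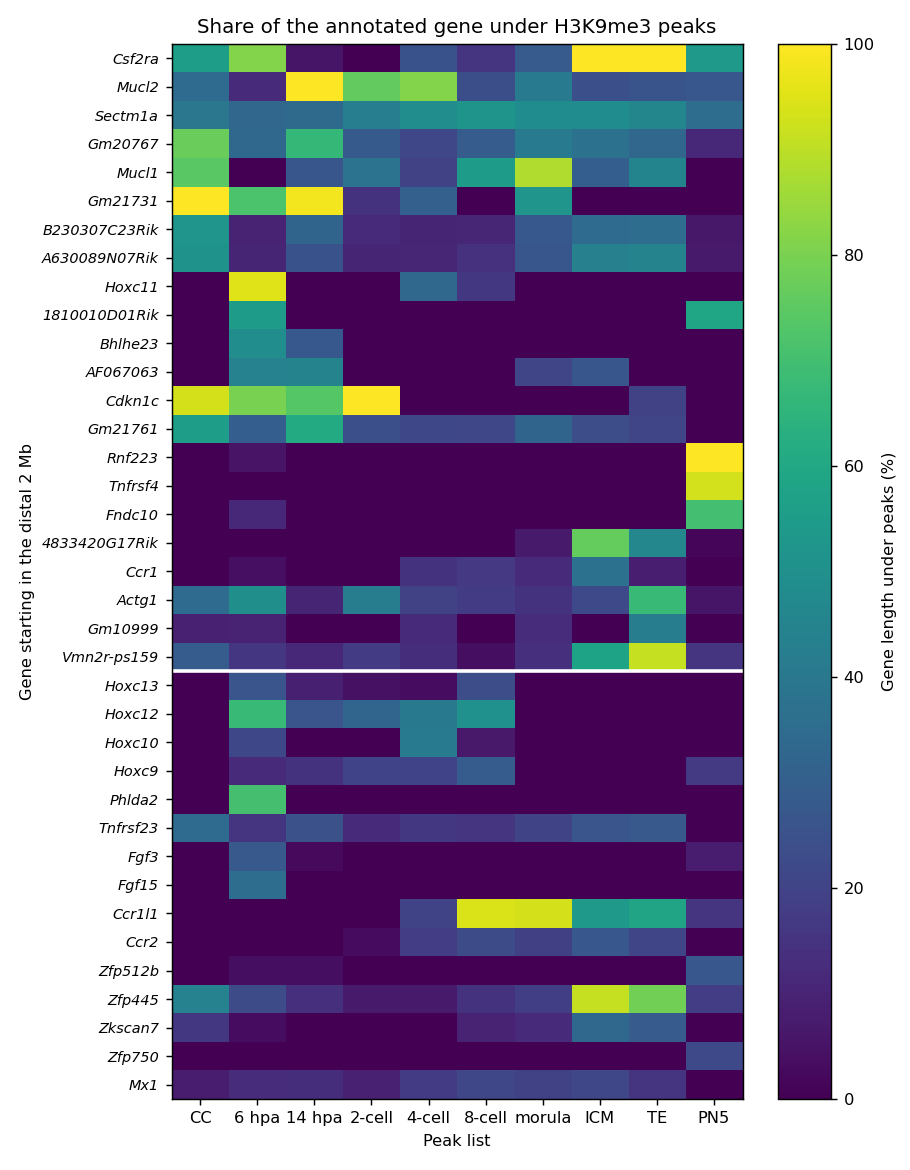
Share of the annotated gene under H3K9me3 peaks (%, colour) in each list, for the 22 genes chosen by their coverage (above the white line) and the 15 further genes of the fixed lists with over 20% in some list (below it, olfactory receptors left out). Hoxc11 is at 95.03% at 6 hpa and 0 in CC, Cdkn1c at 73.6% to 100% up to the 2-cell stage and 0 in 4-cell embryos, and Zfp445 at 91.2% in ICM.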

How the data were processed

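The submitters' processing notes name cutadapt 1.16, BWA, SAMtools, Picard, MACS2 and deepTools, and mm10. By the study's methods, the authors aligned trimmed reads with BWA mem, merged the replicates of a group, removed duplicates, sampled an equal read number per group and called broad peaks over input with MACS2, whose version and threshold are not given in the sources used here. Each deposited peak carries a fold enrichment (a ratio) and a −log10 q, both from the authors' peak caller. The depth of single libraries is therefore unknown here.

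Peaks of each list were merged, and covered bases were counted in 1-kb windows on GRCm38.p6 (mm10), leaving out unassembled bases. A window was marked at 50% coverage or more. Genes came from GENCODE on the same build, and coordinates are 1-based. Python 3.11.15, NumPy 2.4.6 and SciPy 1.17.1 were used, and the interval and overlap code was tested on simulated data.

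The members and gene lists were chosen with earlier results of these data known. Named genes, of at least 2 kb, were the 6 of highest mean coverage, the 4 of largest change each way from CC to 6 hpa and between 14 hpa and PN5, and the 3 each way between ICM and TE, plus fixed lists. The 0.5-Mb split was chosen after seeing the profile. Alternatives were peaks of −log10 q of at least 2, lists trimmed to equal length, medians over chromosomes, equal GC content, ends of 1 or 5 Mb, and windows marked at 25% or 75%.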

Additional observations from a re-analysis of the deposited data

Results flagged for a closer look

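The X chromosome was outside the comparisons, and its last 2 Mb also held peaks in every list. There were 91 peaks in CC, 77 at 6 hpa, 76 at 14 hpa, 77 in 2-cell, 55 in 4-cell, 67 in 8-cell embryos, 85 in morulae, 74 in ICM, 80 in TE and 26 in PN5. They covered between 93.3 kb (2-cell) and 194.6 kb (ICM), with 124.4 kb in CC and 95.8 kb in PN5. The rest of the X chromosome was not counted, so these values do not show whether its end was covered more or less than the rest. With 1 pooled list per group, the difference between lists was not tested. Donor cells came from females, and no sex is given for the zygotes in the sources used here. The number of X copies could thus also differ between PN5 and the other lists.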

How the results depend on the processing

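No paired analysis was possible because each list was called on merged libraries, which also means that leaving out a library could not be tried. The values below moved beyond their counting interval, and the cause was not tested. The distal-to-rest ratio depended most on the extent of the end. With the last 1 Mb it was 1.29 in CC and 1.13 at 6 hpa, on the other side of 1, and 1.27 at 14 hpa, 1.22 in 2-cell, 1.22 in 4-cell and 1.08 in 8-cell embryos, 1.33 in morulae, 1.67 in ICM, 1.66 in TE and 0.955 in PN5. With the last 5 Mb it was above 1 in CC (1.12), 6 hpa (1.38) and PN5 (1.12), and 1.18 at 14 hpa, 1.40 in 2-cell, 1.44 in 4-cell and 1.36 in 8-cell embryos, 1.19 in ICM and 1.25 in TE. As a median of 19 chromosomes it was 0.860 in CC, 0.853 at 6 hpa, 0.924 at 14 hpa, 0.895 in 2-cell and 1.05 in 4-cell embryos and 1.39 in TE. With the rest at distal GC content it was 0.865 at 6 hpa and 0.805 in PN5, with lists of equal length 1.07 at 14 hpa, 1.28 in morulae, 1.39 in ICM and 1.37 in TE, and with −log10 q of at least 2 it was 1.21 in 8-cell embryos and 0.911 in PN5.

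The 6 hpa to CC ratio of distal length was 0.551 at −log10 q of at least 2 and 0.961 at equal length, and that of the outer part 0.458 and 0.741. The 14 hpa to PN5 ratio was 2.60 and 1.24, and that of the outer part 3.66 and 1.74. Against the 8-cell stage the outer part gave 1.83 in ICM and 1.73 in TE at −log10 q of at least 2, and 1.57 in TE at equal length. The share of distal CC windows unmarked at 6 hpa was 57.4% at equal length, 58.2% with windows marked at 25% and 71.4% at 75%. The de novo share at 6 hpa was 34.6% at −log10 q of at least 2, 50.2% at equal length and 37.5% with windows marked at 75%. The ICM and TE Jaccard index was 0.584 at −log10 q of at least 2 and 0.602 at equal length.

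The outer ratio, whose alternatives were chosen after seeing the data, stayed above 1 except for the median of 19 chromosomes in PN5, 0.941. That median was 1.43 at 6 hpa, 1.58 in 4-cell and 1.34 in 8-cell embryos. At equal length the ratio was 2.23 in CC, 2.09 at 14 hpa, 1.94 in 4-cell and 1.69 in 8-cell embryos, 2.19 in morulae, 2.65 in ICM and 2.66 in TE. With the rest at outer GC content it was 1.80 at 6 hpa, 2.02 at 14 hpa, 2.08 in 2-cell, 2.03 in 4-cell and 1.74 in 8-cell embryos, 2.07 in morulae, 2.59 in ICM, 2.67 in TE and 1.29 in PN5. At −log10 q of at least 2 it was 1.94 in 4-cell and 1.79 in 8-cell embryos and 2.62 in TE. Without a replicate a deviant library cannot be seen, and a window without a peak was not shown to lack the mark.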
